A study of Mus musculus with 24 samples.

Results

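The genes described here are 10 heat shock chaperones measured by RNA-seq in the hippocampus of aged mice: Hspa1a, Hspa1b, Dnajb1, Hsp90aa1, Hsph1, Hspb1, Hspa5, Hspa8, Hspe1 and Hspd1. They were taken by symbol, and all 10 were found in the count tables of all 24 libraries, among 49568 gene symbols. Each library came from the hippocampus of 1 mouse, and there were 6 libraries in each of 4 groups. WTSH were wild-type mice in standard housing. WTEE were wild-type mice moved at 18 months of age to an enriched environment, a large cage with a running wheel, tubes, toys and a ladder. KDSH and KDEE were the corresponding groups of MSK1 kinase-dead (MSK1 KD) mice. These mice carry a knock-in point mutation in the endogenous gene for mitogen- and stress-activated kinase 1 (MSK1, gene symbol Rps6ka5), which abolishes the activity of its N-terminal kinase domain in every cell. All groups were male mice on a C57Bl/6J background, taken at 21 to 23 months, and the WT and MSK1 KD animals came from separately bred lines, so that genotype and breeding line cannot be told apart. The study left out libraries WTSH 4, WTSH 7 and KDSH 6 for ribosomal RNA content and poor agreement within their groups, and they are shown apart here. The comparisons therefore rest on 4 WTSH, 6 WTEE, 5 KDSH and 6 KDEE mice.

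Heat shock proteins are chaperones that hold, fold or refold other proteins. HSP70 proteins bind exposed hydrophobic stretches in a cycle driven by ATP, J-domain proteins such as DNAJB1 start that cycle, and HSP110 proteins such as HSPH1 end it by exchanging the nucleotide. When unfolded protein accumulates in the cytosol, heat shock factor 1 (HSF1) binds repeated GAA units, the heat shock element, and raises transcription of the inducible members. Unfolded protein in the endoplasmic reticulum (ER) instead acts through the unfolded protein response on the ER stress element of genes such as Hspa5. In the brain Hspa8, Hsp90aa1 and the mitochondrial pair Hspd1 and Hspe1 are made continuously, whereas Hspa1a, Hspa1b and Hspb1 are low in unstressed neurons. MSK1 acts downstream of neuronal activity and neurotrophins and phosphorylates CREB, the factor that binds the cyclic AMP response element.

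The promoter stretches below show examples of these elements in members described further on. Whether the elements relate to the measured levels was not tested. They are RefSeq sequences on GRCm38.p6, printed 5′ to 3′ on the strand of the gene, with position -1 the base before the annotated start. Promoter windows of 250 bases before to 50 bases after a start were searched on both strands, and 8 of the 10 members had a window in the table used. Hsp90aa1 and Hspa8 had none. Capitals mark the heat shock element core (GAANNTTC or TTCNNGAA) in Hspa1a, Hspa1b and Hspb1, a run of overlapping matches to 3 alternating units in Hspe1, and the ER stress element (CCAAT, 9 bases of any kind, then CCACG) in Hspa5.
Hspa1a, chr17:34972207-34972306, minus strand, positions -150 to -51: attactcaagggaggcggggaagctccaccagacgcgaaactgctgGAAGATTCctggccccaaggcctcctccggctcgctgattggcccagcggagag
Hspa1b, chr17:34959289-34959388, minus strand, positions -150 to -51: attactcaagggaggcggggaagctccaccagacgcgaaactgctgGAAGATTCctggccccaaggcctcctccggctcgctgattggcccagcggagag
Hspb1, chr5:135887769-135887868, plus strand, positions -150 to -51: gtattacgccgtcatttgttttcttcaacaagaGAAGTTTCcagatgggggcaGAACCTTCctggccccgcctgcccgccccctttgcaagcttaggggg
Hspe1, chr1:55088053-55088082, plus strand, positions -95 to -66: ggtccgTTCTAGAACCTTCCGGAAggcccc
Hspa5, chr2:34772019-34772048, plus strand, positions -71 to -42: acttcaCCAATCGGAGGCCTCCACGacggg

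The printed stretches of Hspa1a and Hspa1b were identical over all 100 bases, and their full 250 upstream bases differed at 3. Both genes lie on chromosome 17, have a single exon and share their only heat shock core, at -104. Hspb1 had cores at -117 and -97. The element of Hspe1 was read again, from the opposite strand, in the window of 1 of the 2 Hspd1 starts, since these genes lie head to head on chromosome 1, and there the match began at -144. A core was found in at least 1 window of 6 of the 8 members, the other being Hsph1. Of 32851 mouse promoter windows, counted singly, 15.1% held a core. The 2 figures are not alike, since Dnajb1, Hsph1 and Hspd1 had 2 windows each and some members shared their match, as above. The form with 3 units was found in Hsph1, Hspe1 and Hspd1 (0.603% of all windows), and in Hsph1 it lay after the start. The ER stress element was found in Hspa5, at -65 (0.119% of all windows), and in no other member. Positions count from the RefSeq start. In the GENCODE annotation Hspa5 starts earlier, at 34771970, so that its printed stretch overlaps an Hspa5 exon. The printed stretch of Hspe1 overlaps an exon of Hspd1 there. No member window held the full cyclic AMP response element TGACGTCA (1.79% of all windows), whereas the shorter form TGACG was present in Dnajb1, Hspb1, Hspa5, Hspe1 and Hspd1 (20.8% of all windows). These are matches of letters only.

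The 21 retained libraries held 27410239 to 71907130 counts on genes (median 47549989). The hippocampal neuron markers (Neurod6, Prox1, Wfs1, Spink8, Camk2a, Rbfox3 and Snap25) were all present, at a summed 4692 to 7608 CPM (counts relative to library size, scaled by the trimmed mean of M-values). The MSK1 mutation is a point mutation, and the Rps6ka5 level was not used to check the genotype. That level ranged from 21.1 to 25.2 CPM in WTSH and from 13.8 to 24.9 CPM in WTEE, against 23.6 to 24.8 CPM in KDSH and 23.0 to 24.4 CPM in KDEE. Its log2 difference of MSK1 KD from WT with housing pooled was 0.089 (SE 0.072). The mouse WTEE 10 stood apart from the other 20. It had the lowest neuron marker sum (4692 CPM, against 6469 to 7608), the highest endothelial marker sum (247 CPM, against 147 to 227), the highest share of mitochondrial counts (6.23%, against 3.51 to 4.97%) and the lowest Rps6ka5 level, and it was the highest mouse for 6 of the 10 chaperones. The share of all genes that were highest in this mouse was not computed. Several results that rest on this mouse are given with and without it. The choroid plexus marker Ttr (transthyretin) was at 2492 CPM or more in 5 mice (WTSH 19, WTEE 10, WTEE 13, KDEE 12 and KDEE 14) and lay between 4.84 and 87.5 CPM in the other 16. In whole hippocampus, fewer cells of a type and less RNA per cell cannot be told apart.

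Per kilobase of exon, the constitutive cytosolic HSP70 Hspa8 was the most abundant member, at 341 ± 18.9 CPM per kb (SD, n = 21 mice). It was followed by Hsp90aa1, the stress-inducible HSP90 of the cytosol, at 199 ± 13 CPM per kb. Hspa5 (BiP, the HSP70 of the ER; 61.6 ± 13.2 CPM per kb) and Hspd1 (HSP60, the mitochondrial chaperonin; 56.1 ± 3.08 CPM per kb) came next and overlapped, with Hspa5 the higher in 13 of 21 mice. Hsph1 (37.9 ± 3.08 CPM per kb) and Hspe1 (HSP10, the lid of the HSP60 barrel; 35.3 ± 6.12 CPM per kb) also overlapped, with Hsph1 the higher in 15 of 21 mice. Dnajb1 stood at 16.9 ± 1.59 CPM per kb, separate from its neighbours in every mouse. The lowest levels belonged to Hspb1 (5.58 ± 2.51 CPM per kb), Hspa1b (5.18 ± 0.830 CPM per kb) and Hspa1a (2.29 ± 0.304 CPM per kb). Hspb1 exceeded Hspa1b in 9 of 21 mice. Hspa1a, at 2.81 CPM per kb in its highest mouse, was below the range of Hspa1b and overlapped that of Hspb1, whose lowest mouse had 2.61 CPM per kb.

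**Figure D1:**
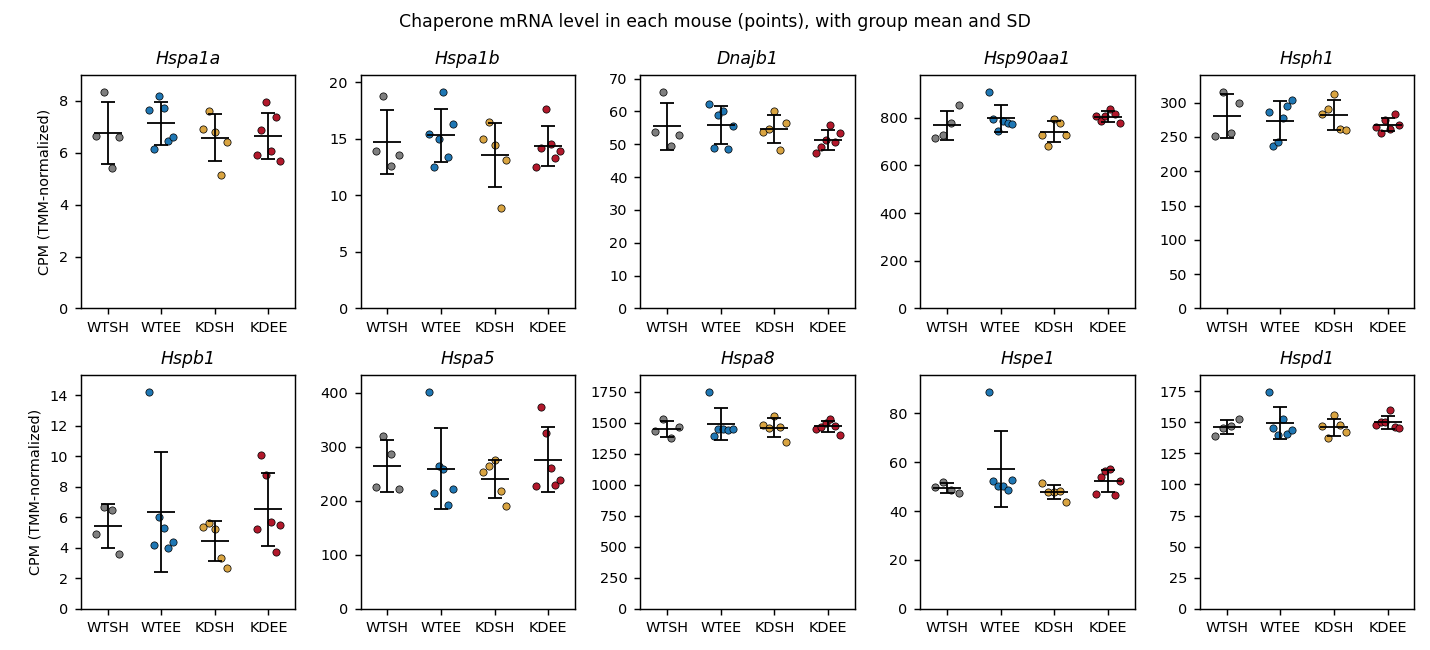
Level of each chaperone mRNA in CPM (y axis, from 0) in each of the 21 retained mice (points) by group (x axis), with the group mean (wide bar) and SD (whiskers). The groups overlapped for every gene, and the mouse WTEE 10 was the highest point for Hsp90aa1, Hspb1, Hspa5, Hspa8, Hspe1 and Hspd1.

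Hspa1a (chr17:34969190-34972156, GRCm38, minus strand) and Hspa1b (chr17:34956436-34959238, minus strand) encode the inducible HSP70. Hspa1a measured 6.65, 8.35, 5.42 and 6.61 CPM in the WTSH mice and 6.91, 7.62, 6.80, 5.15 and 6.43 CPM in the KDSH mice. In the enriched groups it ranged from 6.14 to 8.18 CPM in WTEE (median 7.14) and from 5.67 to 7.95 CPM in KDEE (median 6.48). All groups overlapped, and the highest of the 21 mice had 1.62 times the level of the lowest. Hspa1b measured 13.9, 18.8, 12.6 and 13.5 CPM in WTSH and 15, 16.5, 14.4, 8.92 and 13.1 CPM in KDSH. Its range was 12.5 to 19.2 CPM in WTEE (median 15.2) and 12.5 to 17.7 CPM in KDEE (median 14.1). KDSH 18 was the lowest mouse for both genes. The log2 difference of WTEE from WTSH was 0.079 (SE 0.13) for Hspa1a and 0.056 (SE 0.15) for Hspa1b, with adjusted p-values of 0.816 and 0.893 in edgeR's quasi-likelihood test with Benjamini-Hochberg adjustment over 20187 genes. That of KDEE from KDSH was 0.016 (SE 0.12) for Hspa1a and 0.081 (SE 0.14) for Hspa1b. Hspa1b supplied 63.4 to 71.2% of the summed counts of the pair. Counting used uniquely placed reads, and 48.6% of the 100-base windows of Hspa1a transcripts and 49.9% of those of Hspa1b occur in the other gene or in Hspa1l, so that the levels of both genes, and the split between them, are uncertain. Exons of Hspa1a also overlap those of Gm20481 on the other strand over 564 bases, and the counting did not use strand.

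Dnajb1, Hsph1 and Hsp90aa1 are HSF1 targets with substantial levels in unstressed tissue. Dnajb1 measured 53.6, 65.9, 49.6 and 52.7 CPM in WTSH and 53.9, 54.7, 60.2, 48.2 and 56.4 CPM in KDSH. It ranged from 48.7 to 62.1 CPM in WTEE and from 47.3 to 56.0 CPM in KDEE. Its largest log2 difference was 0.12 (SE 0.075) between WTEE and KDEE (adjusted p = 0.957 in edgeR). Hsph1 measured 252, 316, 256 and 300 CPM in WTSH and 283, 290, 313, 262 and 260 CPM in KDSH, with 236 to 304 CPM in WTEE and 256 to 284 CPM in KDEE. Each group spanned the means of the other groups for both genes. Hsp90aa1 measured 715, 727, 777 and 851 CPM in WTSH, against 742 to 908 CPM in WTEE (median 781). It measured 727, 681, 794, 777 and 727 CPM in KDSH, against 778 to 837 CPM in KDEE (median 807). The groups overlapped, since the highest KDSH mouse (794 CPM) lay above the lowest KDEE mouse (778 CPM), whereas the other 4 KDSH mice were below all KDEE mice. The log2 difference of KDEE from KDSH was 0.12 (SE 0.061, 95% interval -0.0072 to 0.24, adjusted p = 0.449 in edgeR), and that of enriched from standard housing over both genotypes was 0.087 (SE 0.044, adjusted p = 0.284 in edgeR). Of the windows of Hsp90aa1 transcripts, 38% also occur in annotated pseudogenes.

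Hspb1 (chr5:135887919-135889563, plus strand, 2 exons) encodes HSP25, a small heat shock protein that holds unfolded proteins without ATP. It varied more between mice than any other member, from 2.69 to 14.2 CPM, a ratio of 5.28 between the highest and the lowest mouse. It measured 4.93, 6.63, 6.46 and 3.58 CPM in WTSH, against 3.99 to 14.2 CPM in WTEE (median 4.83). It measured 5.38, 5.59, 5.19, 3.31 and 2.69 CPM in KDSH, against 3.73 to 10.1 CPM in KDEE (median 5.58). The group medians therefore lay close together, and WTEE 10 (14.2 CPM), KDEE 12 (10.1 CPM) and KDEE 14 (8.79 CPM) stood above all other mice. These 3 were among the 5 mice rich in Ttr, of which KDSH held none. The log2 difference of KDEE from KDSH was 0.55 (SE 0.32, 95% interval -0.11 to 1.22, adjusted p = 0.478 in edgeR), the largest of any member. That of WTEE from WTSH was 0.23 (SE 0.34, adjusted p = 0.795 in edgeR), and without WTEE 10 it was -0.18 (SE 0.26). The difference between these effects was -0.32 (SE 0.46, 95% interval -1.29 to 0.64), and without WTEE 10 it was -0.74 (SE 0.35, adjusted p = 0.972 in edgeR). Enriched mice of both genotypes together differed from standard-housed mice by 0.39 (SE 0.23, adjusted p = 0.340 in edgeR), or by 0.19 (SE 0.18) without WTEE 10. Of the windows of Hspb1 transcripts, 44.0% also occur in the pseudogene Hsp25-ps1.

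Hspa5 (chr2:34771970-34777547, plus strand) measured 226, 321, 286 and 222 CPM in WTSH and 253, 265, 276, 218 and 190 CPM in KDSH. It ranged from 193 to 401 CPM in WTEE (median 240) and from 228 to 374 CPM in KDEE (median 250). The 2 highest mice, WTEE 10 (401 CPM) and KDEE 12 (374 CPM), were also the highest for Hspb1. Its log2 difference was 0.20 (SE 0.17, adjusted p = 0.614 in edgeR) for KDEE from KDSH and -0.027 (SE 0.18) for WTEE from WTSH, and the latter became -0.19 (SE 0.15) without WTEE 10. None of the windows of Hspa5, Dnajb1 or Hsph1 transcripts occurred in another gene.

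Hspa8 and Hspd1 varied little between mice, and Hspe1 varied more, with a ratio of 2.03 between its highest and lowest mouse. Hspa8 measured 1434, 1527, 1372 and 1462 CPM in WTSH and 1482, 1456, 1553, 1463 and 1341 CPM in KDSH, with 1390 to 1746 CPM in WTEE and 1403 to 1530 CPM in KDEE. Hspd1 measured 139, 145, 147 and 153 CPM in WTSH and 147, 137, 155, 148 and 143 CPM in KDSH, with 140 to 174 CPM in WTEE and 145 to 160 CPM in KDEE. The groups overlapped for both genes, and WTEE 10 was the highest mouse for each. Hspe1 measured 49.8, 52.1, 48.7 and 47.3 CPM in WTSH and 51.6, 47.9, 47.7, 48.1 and 43.6 CPM in KDSH. It ranged from 48.7 to 88.7 CPM in WTEE (median 51.4) and from 46.4 to 57.4 CPM in KDEE (median 53.2). A single mouse, WTEE 10, set the upper end, since the next highest WTEE mouse had 52.8 CPM. The log2 difference of Hspe1 between enriched and standard housing was 0.17 (SE 0.086, 95% interval -0.010 to 0.35, adjusted p = 0.284 in edgeR) and 0.089 (SE 0.040, adjusted p = 0.240 in edgeR) without WTEE 10. The first exons of Hspe1 and Hspd1 overlap by 112 bases on opposite strands. Windows that also occur in other annotated genes made up 28.2% of those of Hspa8, 23.4% of those of Hspd1 and 10.04% of those of Hspe1.

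Across the 7 comparisons, none of the 10 chaperones passed the threshold of an adjusted p under 0.05 with an absolute log2 fold change over 0.38. This held for WTEE against WTSH (0.0% of all genes tested passed), KDEE against KDSH (0.0%), KDSH against WTSH (0.0%), WTEE against KDEE (0.0%), MSK1 KD against WT with housing pooled (0.0%) and the contrast of the enrichment effect between the genotypes (0.0%). It also held for enriched against standard housing with genotypes pooled, where 1 gene of 20187 passed (0.00495%). So few genes passed anywhere that a count of 0 among 10 members sets them apart in no way. In edgeR none of the 70 member differences had an unadjusted p under 0.05, where the share of all genes with such a p ran from 1.001% in KDSH against WTSH to 18.9% in the pooled housing comparison. Without WTEE 10 there were 5 such differences among the members, and with all 24 libraries 4. In DESeq2 none was called and 2 had an unadjusted p under 0.05, both for Hsp90aa1, in KDEE against KDSH and in the pooled housing comparison. No member had groups that did not overlap, compared with 0.986% of genes for WTEE against WTSH, 1.84% for KDEE against KDSH, 0.644% for KDSH against WTSH and 0.624% for WTEE against KDEE.

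The intervals show how large a difference these mice could still hide. All 70 of the 95% intervals included 0, and 52 of the 70 estimates were under 0.1 on the log2 scale. The whole interval lay within ±0.38 for 7 members in WTEE against WTSH, 8 in KDEE against KDSH, 7 in KDSH against WTSH and 8 in WTEE against KDEE. It did so for 9 members in each pooled comparison and for 5 in the contrast of the enrichment effect between genotypes. Dnajb1, Hsp90aa1, Hsph1, Hspa8 and Hspd1 stayed within ±0.38 in every comparison, and for Hspb1 the interval was never that narrow. The median member difference was 0.046 for WTEE against WTSH, 0.059 for KDEE against KDSH and -0.043 for KDSH against WTSH, beside 0.0065, 0.0016 and -0.00014 over all genes tested.

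**Figure D2:**
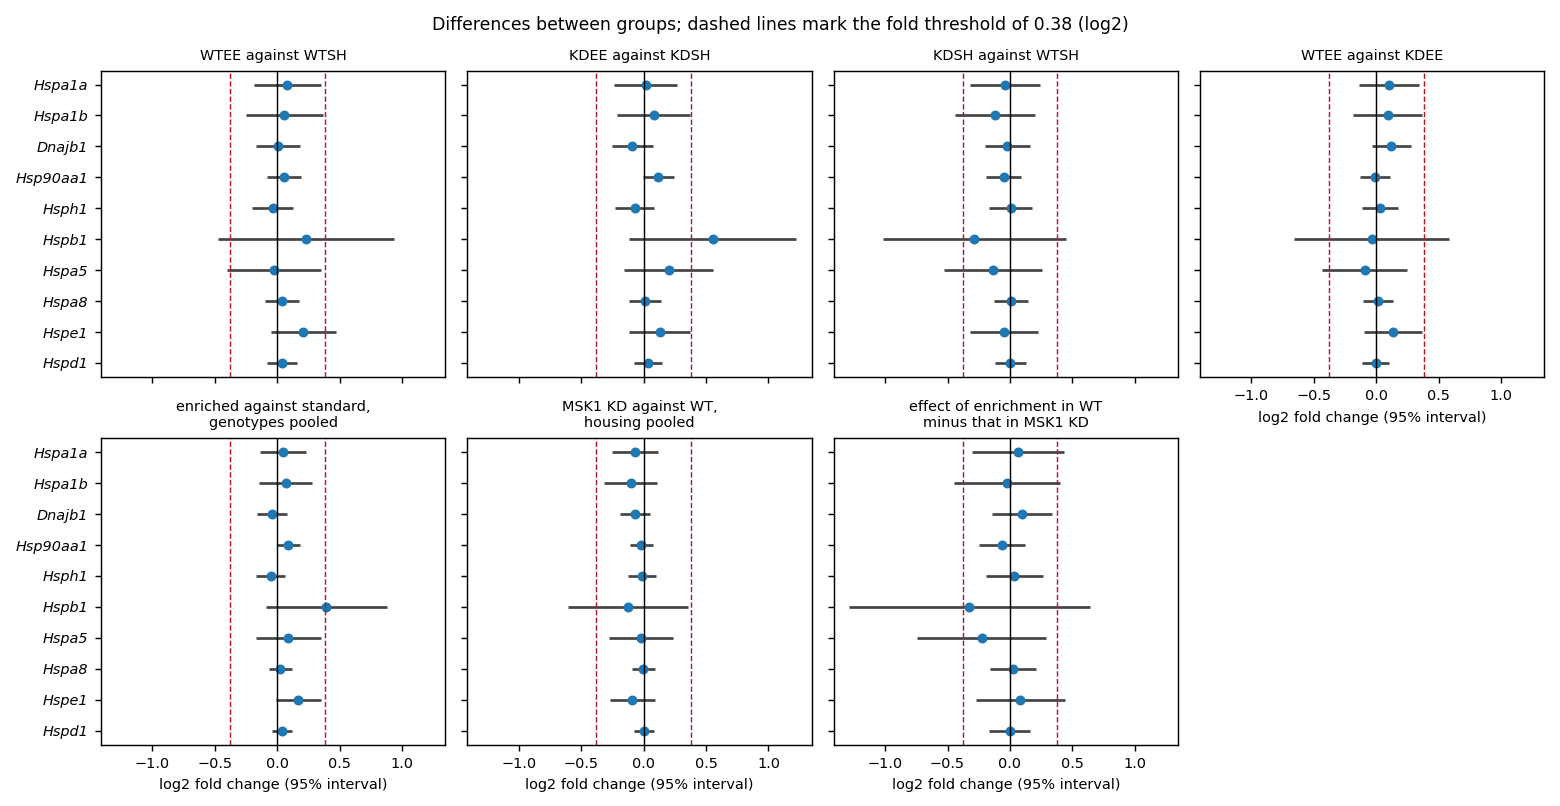
Log2 fold change (points) with its 95% interval (bars) for each chaperone in the 7 comparisons, from the fit over 21 libraries. Dashed lines mark the threshold of 0.38 in each direction. Every interval crosses 0, and those of Hspb1 are the widest.

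The wider chaperone network was examined as lists of related genes, and in none of the lists below was any gene called in any comparison by edgeR. Of these lists the small heat shock proteins had the largest median difference in KDEE against KDSH: all 6 that were tested of 7 listed had higher values in KDEE than in KDSH, with a median log2 difference of 0.51, and 4 of them had an unadjusted p under 0.05, against 11.6% of all genes. In WTEE against WTSH all 6 were higher too, with a median of 0.19, and 1 had such a p (6.55% of all genes). All 6 were also higher in enriched than in standard housing over both genotypes (median 0.39, 5 with an unadjusted p under 0.05), where 18.9% of all genes had such a p. WTEE 10 was the highest WTEE mouse for Hspb1, Cryab (164 CPM), Hspb3 (1.18 CPM) and Hspb8 (29.7 CPM), though not for Hspb6. Without WTEE 10, Hspb1 was lower in WTEE than in WTSH, as given above. These list counts and medians were not recomputed without that mouse. Cryab (alpha-B crystallin) averaged 131 ± 23.4 CPM in KDEE (SD, n = 6) and 95.1 ± 12.1 CPM in KDSH (SD, n = 5), a log2 difference of 0.47 (SE 0.13, adjusted p = 0.338 in edgeR). Hspb3 differed by 0.73 (SE 0.25, adjusted p = 0.651 in edgeR) between WTEE (0.686 ± 0.265 CPM; SD, n = 6) and WTSH (0.412 ± 0.0787 CPM; SD, n = 4). Markers of other cell types were also higher in KDEE than in KDSH, with 5 of 5 oligodendrocyte markers (median 0.28), 5 of 5 blood markers (median 1.40) and 8 of 8 choroid plexus markers (median 4.26), none of them called. All endothelial, meningeal, microglia and astrocyte markers were higher too, and 3 of 4 mural markers tested. Of 4 pituitary markers tested 3 were lower (median -5.13), and of 7 neuron markers 3 were higher and 4 lower. In WTEE against WTSH the medians of the oligodendrocyte, blood and choroid plexus lists were 0.20, 1.52 and 0.52. The part of these markers in the differences of the chaperone lists was not tested.

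The subunits of TRiC, the cytosolic chaperonin that folds actin and tubulin, all had slightly higher values in enriched than in standard housing (8 of 8, median log2 difference 0.067), with Cct3 at 0.075 (SE 0.049). Of all genes 51.9% were higher in that comparison. Cct5 was at 0.14 (SE 0.075) in WTEE against WTSH. Of 21 ER chaperones and unfolded protein response genes, 16 were higher and 5 lower in KDEE than in KDSH (median 0.091), where 50.4% of all genes were higher. The choroid plexus markers above were higher too, and 2 of the 6 KDEE mice and none of the 5 KDSH mice were rich in Ttr. The part of this in the ER genes was not tested. In WTEE against WTSH 12 of these 21 ER genes were higher and 9 lower, with a median of 0.0011, where 51.5% of all genes were higher. Dnajc3 was at 0.23 (SE 0.12, adjusted p = 0.456 in edgeR) in KDEE against KDSH. Of 9 mitochondrial chaperones and proteases 8 were higher in the same comparison (median 0.079). Grpel1 and Clpp differed by 0.14 (SE 0.061) and 0.17 (SE 0.087) between enriched and standard housing. Among 22 HSP90 family members and co-chaperones, 15 were higher in KDEE than in KDSH (median 0.057), Ahsa2 differed by -0.15 (SE 0.060) between housing conditions and Bag5 by 0.14 (SE 0.068) between WTEE and KDEE. The 12 cytosolic HSP70 and HSP110 genes divided 6 to 6, with Hspa12a at -0.16 (SE 0.062) between housing conditions and Hspa13 at -0.13 (SE 0.059) between WTEE and WTSH. The 17 J-domain co-chaperones divided 9 to 8, with Dnajb5 at -0.28 (SE 0.098, adjusted p = 0.371 in edgeR) in KDEE against KDSH and Dnajb9 at 0.11 (SE 0.055) between housing conditions. Hsf1 itself was at -0.15 (SE 0.063, adjusted p = 0.396 in edgeR) in KDEE against KDSH, and Hsf2 at 0.12 (SE 0.068) in WTEE against KDEE, among 5 heat shock factor genes. Of the cold-inducible RNA-binding proteins, Cirbp was at 0.20 (SE 0.076, adjusted p = 0.231 in edgeR) between housing conditions and Rbm3 at -0.13 (SE 0.065) between MSK1 KD and WT.

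The chaperones differed in how much they varied between mice of the same group. The within-group SD of log2 CPM was 0.55 for Hspb1, 0.30 for Hspa5, 0.25 for Hspa1b, 0.20 for Hspa1a, 0.20 for Hspe1, 0.13 for Dnajb1, 0.12 for Hsph1, 0.087 for Hsp90aa1, 0.082 for Hspa8 and 0.081 for Hspd1. Spread depends on level, so each SD was ranked among the 500 genes of most similar level. Hspa5 stood at percentile 96.4 and Hspb1 at percentile 94.6, both among the more variable genes of their level, whereas Hspd1 (15), Hsp90aa1 (15) and Hspa8 (12.4) were among the steadier ones. Hspa1b (83.8) and Hspe1 (80.4) lay between, and Hspa1a (55), Dnajb1 (53.4) and Hsph1 (41.2) were near the middle. WTEE 10 lay farther from its group mean than any other mouse for Hspb1 (1.32 above), Hspa5 (0.67 above) and Hspe1 (0.67 above). The SDs and percentiles were not recomputed without WTEE 10, so part of the spread of these genes comes from 1 library.

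Most member pairs had a positive correlation from mouse to mouse, and the share over all pairs of genes was not computed. After the group mean was removed from log2 CPM, 43 of the 45 member pairs had a positive Pearson's r over the 21 mice, with a median of 0.43, and without WTEE 10 38 were positive, with a median of 0.37, most of the negative ones involving Hsp90aa1. Over the 21 mice 10 pairs, all positive, had an adjusted p under 0.05 in a permutation test over mice within groups. For some of these pairs many other genes had a higher r with the same member, as given below. The highest r was that of Hspb1 with Hspa5 (r = 0.954, Spearman's rho = 0.926, permutation p = 1e-05 for each, the smallest 100000 permutations can give, adjusted p = 0.00045). Mice with more mRNA for the ER chaperone BiP thus also had more for the small heat shock protein. The value was 0.911 without the 2 mice farthest from the median and 0.929 without WTEE 10. Hsp90aa1 and Hspd1 followed (r = 0.861, rho = 0.813, adjusted permutation p = 0.0009), with r = 0.774 without the 2 farthest mice and 0.784 without WTEE 10.

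The near-identical Hspa1a and Hspa1b had r = 0.800 (rho = 0.773, adjusted permutation p = 0.0033), which was 0.647 and no longer past the threshold without the 2 farthest mice (adjusted permutation p = 0.102). Only uniquely placed reads were counted, so that r rests on reads that fit 1 of these genes better. Reads misplaced between them were not assessed. Dnajb1, the J-domain partner of HSP70, had r = 0.723 with Hspa1b (rho = 0.762, adjusted permutation p = 0.0114) and 0.641 with Hspa1a (rho = 0.579, adjusted permutation p = 0.033), or 0.541 and 0.404 without the 2 farthest mice, where neither passed (adjusted permutation p = 0.374 and 0.389). Hsp90aa1 did not share this pattern: its r was -0.230 with Hspa1a, -0.298 with Hspa1b and 0.017 with Dnajb1, none past the threshold, and whether these values differ from those of Dnajb1 was not tested. The other 5 pairs past the threshold joined Hspa8 to Hspa5 (0.687), Hspe1 (0.812) and Hspd1 (0.764), and Hspe1 to Hspb1 (0.786) and Hspa5 (0.736). Many other genes had a higher r with the same members. Among 15087 genes ranked by r with Hspe1, Hspa8 was at 1320, Hspb1 at 1616 and Hspa5 at 2143. By r with Hspa8, Hspa5 was at 1474, Hspd1 at 483 and Hspe1 at 115. Hspe1 was at 467 for Hspb1 and 538 for Hspa5, and Hspa8 at 1028 for Hspa5 and 298 for Hspd1. In the other pairs past the threshold no partner ranked below 205 (Hspa1a for Dnajb1). The r of all 5 pairs fell to between 0.446 and 0.624 without WTEE 10, and none of them then passed. Without that mouse 4 pairs passed: Hspb1 with Hspa5, Hsp90aa1 with Hspd1, Hspa1a with Hspa1b and Hspa1b with Dnajb1. Hspe1 and Hspd1, which share a promoter region, had r = 0.752 (adjusted permutation p = 0.075), and 0.291 without WTEE 10.

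**Figure D3:**
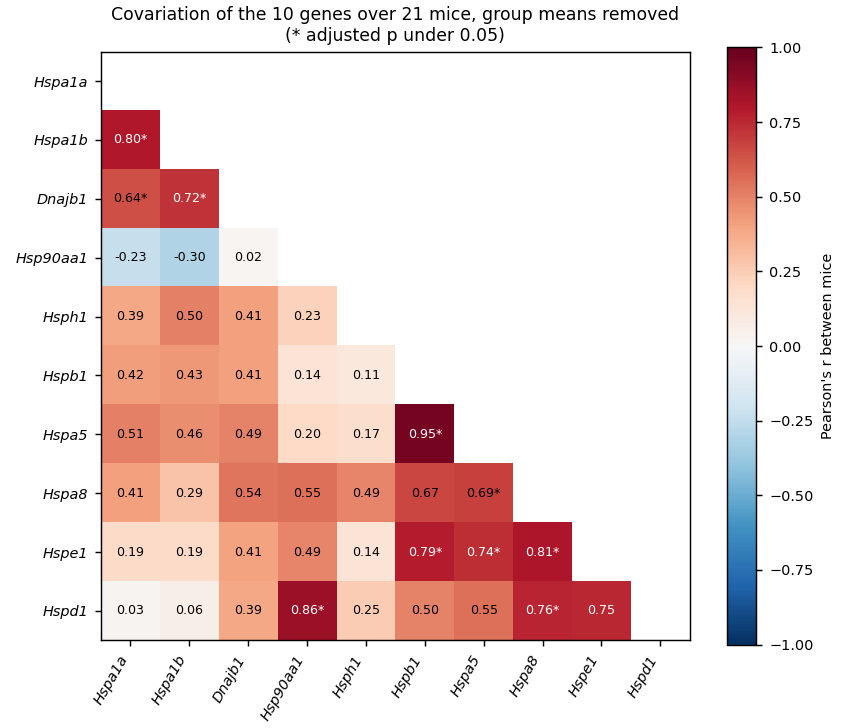
Pearson's r (colour and number) between mice for the 45 pairs of chaperones, over 21 mice with group means removed. Asterisks mark the 10 pairs with an adjusted permutation p under 0.05. The darkest cell is Hspb1 with Hspa5 (0.95), and the only negative cells are Hsp90aa1 with Hspa1a and with Hspa1b.

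Individual mice showed the same pattern as counts of members above the group mean. All 10 members lay above it in WTEE 10 and in KDEE 14, and 9 of 10 in KDSH 8. Only 1 of 10 did so in WTSH 2, WTEE 11, WTEE 17, KDSH 24 and KDEE 9. The share of all genes above the group mean in each mouse was not computed.

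Each member was also set against 3 library measures: counts on genes, and the shares of counts on structural RNA and on mitochondrial genes. It was set as well against 8 other genes: Rbm3, Cirbp, Hsf1, Fos, Per1, Fkbp5, Cldn5 and Ttr. Of these 110 relations 8 had an adjusted p under 0.05. The relation of Hsph1 with Rbm3, a cold-inducible RNA-binding protein whose mRNA is raised by mild cooling, was the only negative one. Its r was -0.843 (rho = -0.801, permutation p = 0.00022 and 0.00046, adjusted p = 0.0242 and 0.02), and -0.823 without the 2 mice farthest from the median of Rbm3. It lay between -0.871 and -0.818 when each mouse was left out in turn. The relation can be read from single mice: WTSH 5 had 316 CPM of Hsph1 with 54.6 CPM of Rbm3, whereas WTSH 2 had 252 CPM with 70.9 CPM. Rbm3 itself ranged from 54.1 to 70.9 CPM in WTSH, 55.5 to 76.8 CPM in WTEE, 50.7 to 66.5 CPM in KDSH and 54.0 to 65.7 CPM in KDEE, and it was not called in any comparison. With Cirbp, the other cold-inducible gene examined, the r of Hsph1 was -0.456 over 21 mice and -0.702 without WTEE 10 (adjusted permutation p = 0.102). Over the 21 mice no other member had a relation with Rbm3 past the threshold, the next most negative being Hspa1b (-0.375). Without WTEE 10 Hspa8 was at -0.650 with Rbm3 (adjusted permutation p = 0.0614). With Cirbp, r was then -0.673 for Hspa1b, -0.600 for Dnajb1, -0.593 for Hspa1a and -0.566 for Hspa8, none past the threshold. The remaining members lay between -0.417 (Hspa5) and 0.040 (Hsp90aa1) with Cirbp.

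Hspa1a and Hspa1b were related to Hsf1, the gene for the heat shock factor, with r = 0.707 and 0.754 (rho = 0.709 and 0.710, adjusted permutation p = 0.0299 for both Pearson values). These values were 0.558 and 0.522 without the 2 mice farthest from the median of Hsf1 (adjusted permutation p = 0.308 for each), and 0.518 and 0.493 when group means were not removed (adjusted permutation p = 0.0792 and 0.0963). Without WTEE 10 they were 0.703 and 0.755, with an adjusted permutation p of 0.0614 for each. Of 27 alternatives, the threshold was passed in 16 for Hspa1a and in 18 for Hspa1b. Fos, Per1 and Fkbp5 had no relation past the threshold over the 21 mice or without WTEE 10. Hspa1b had r = 0.596 with Per1 and 0.621 with Fkbp5 (adjusted permutation p = 0.141 for each). Without WTEE 10 these were 0.748 and 0.625 (adjusted permutation p = 0.0614 and 0.115).

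**Figure D4:**
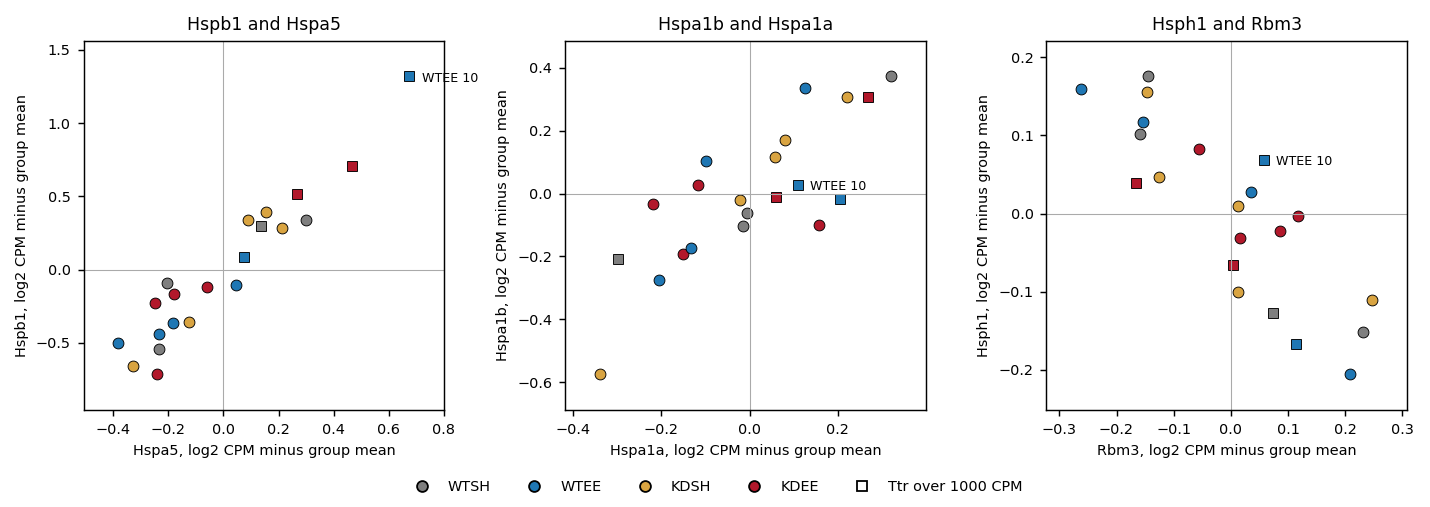
Log2 CPM minus the group mean for Hspb1 against Hspa5, Hspa1b against Hspa1a, and Hsph1 against Rbm3, 1 point per mouse (n = 21), coloured by group. Squares mark the 5 mice with Ttr of at least 2492 CPM. Hspb1 and Hspa5 increase together (r = 0.954), with WTEE 10 at the upper end, and Hsph1 decreases with Rbm3 (r = -0.843).

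Relations with vessel and choroid plexus markers passed the threshold for Hspb1 (Cldn5 and Ttr), Hspa5 (Ttr) and Hspe1 (Cldn5) over the 21 mice, and none of them did without WTEE 10. With Cldn5, a tight junction gene of brain endothelium, r was 0.787 for Hspb1 and 0.871 for Hspe1 (rho = 0.706 and 0.747, adjusted permutation p = 0.033 and 0.0248), and these became 0.484 and 0.547 without the 2 mice farthest from the median of Cldn5, where neither passed (adjusted permutation p = 0.328 and 0.266). Without WTEE 10, which had 82.6 CPM of Cldn5 against 23.5 to 42.4 CPM in the others, they were 0.602 and 0.639 and no longer passed (adjusted permutation p = 0.102 and 0.0614). Of 7 endothelial markers, 6 had a positive r with Hspb1 (median 0.69), and without WTEE 10 all 7 did (median 0.60). Their summed level ranged from 161 to 191 CPM in WTSH, 170 to 247 CPM in WTEE, 147 to 198 CPM in KDSH and 158 to 227 CPM in KDEE. The r of Hspe1 with the share of mitochondrial counts was 0.838 (rho = 0.739, adjusted permutation p = 0.0299), 0.430 without the 2 farthest mice and 0.605 without WTEE 10, and it passed in neither (adjusted permutation p = 0.308 and 0.099). The remaining 2 relations past the threshold were those of Hspb1 and Hspa5 with Ttr, whose levels fell into separate clusters, so that no pooled coefficient is given.

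In the 5 mice with Ttr of at least 2492 CPM, Hspa5 ranged from 265 to 401 CPM and Hspb1 from 6.02 to 14.2 CPM. In the other 16 mice the ranges were 190 to 321 CPM and 2.69 to 6.63 CPM. All 5 mice were above the median of the 16 for both genes, and 3 of the 5 were above all 16. All 8 choroid plexus markers had counts, and their summed level reached 4458 CPM in WTSH, 6022 CPM in WTEE, 106 CPM in KDSH and 9827 CPM in KDEE, from lowest values of 29.6, 46.4, 26.0 and 88.3 CPM. Their part in the levels of Hspb1 and Hspa5 over all mice was not tested. Within the 16 mice with little Ttr, r with Ttr was -0.081 for Hspb1 and 0.068 for Hspa5, while Hspb1 and Hspa5 still had r = 0.868 with each other (rho = 0.868, adjusted permutation p = 0.00405). The relation of Hsph1 with Rbm3 was -0.912 there (rho = -0.868, adjusted permutation p = 0.0121), the only one of the 110 past the threshold.

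The genes most like each member were found by r over the 21 mice among 15087 other genes, as a description. For Hspa5 they were Manf (0.961), Creld2 (0.961) and Pdia4 (0.959), all genes of the unfolded protein response or of ER protein folding, and Hspb1 ranked 4. For Hspb1 they were Dnajb11 (0.957), an ER partner of BiP, then Hspa5 and Mrps6 (0.945). Over the list of ER chaperones and unfolded protein response genes the median r was 0.876 with Hspa5 (19 of 20 positive) and 0.880 with Hspb1 (20 of 21 positive), beside 0.043 and 0.050 over all genes. Without WTEE 10 these medians were 0.851 and 0.833. For Hspe1 the nearest genes were Trappc4 (0.971), Myeov2 (0.965) and Ndufa12 (0.965), which were at 0.854, 0.844 and 0.825 without WTEE 10. For Hspd1 they were Zc3h15 (0.894), Dnaja1 (0.881), a J-domain co-chaperone of the cytosol, and Vti1b (0.872). These 3 were at 0.778, 0.821 and 0.715 without WTEE 10. Hsp90aa1 had Cd99l2 (0.876), G3bp2 (0.874) and Tspyl4 (0.862), followed by Hspd1. Rundc1 came first for both Hspa1a (0.826) and Hspa1b (0.907), ahead of Mul1 (0.808) and Apba3 (0.806) for the former and of Chtf8 (0.885) and Slc15a4 (0.860) for the latter. Those of Dnajb1 included Sergef (0.828) and Rilpl1 (0.819), Hspa8 had Chmp2b (0.898), Rbm17 (0.897) and Polr2c (0.897), and Hsph1 had Rbm28 (0.785), Zfp180 (0.781) and Atg4b (0.776). The 3 genes of Hspa8 were at 0.733, 0.732 and 0.728 without WTEE 10.

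The 3 left-out libraries had 15800187 (WTSH 4), 23318036 (WTSH 7) and 39585901 (KDSH 6) counts on genes, of which 22.8%, 22.6% and 5.50% fell on structural RNA gene models, against at most 2.49% in the retained libraries. When all 24 libraries were normalized together, their chaperone levels were as follows. WTSH 4 and WTSH 7 each had 7 of 10 members within the range of the 4 retained WTSH mice. In KDSH 6, 7 of the 10 members lay above all 5 retained KDSH mice, among them Hspa1a (9.10 CPM, against 5.03 to 7.39), Dnajb1 (63.6 CPM, against 47.1 to 58.4), Hspb1 (7.98 CPM, against 2.61 to 5.42) and Hspa5 (304 CPM, against 184 to 267). The share of all genes outside the range of their group in these 3 libraries was not computed, so these counts do not set the chaperones apart. Hspa1a was also higher in KDSH 6 and in WTSH 7 (8.66 CPM) than in any of the 21 retained mice, whose highest had 8.13 CPM. In WTSH 7 the highest Hsph1 level of all 24 libraries (315 CPM) stood beside the lowest Rbm3 level (44.9 CPM). Hspe1 was the lowest of all 24 in WTSH 4 (40.7 CPM).

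**Figure D5:**
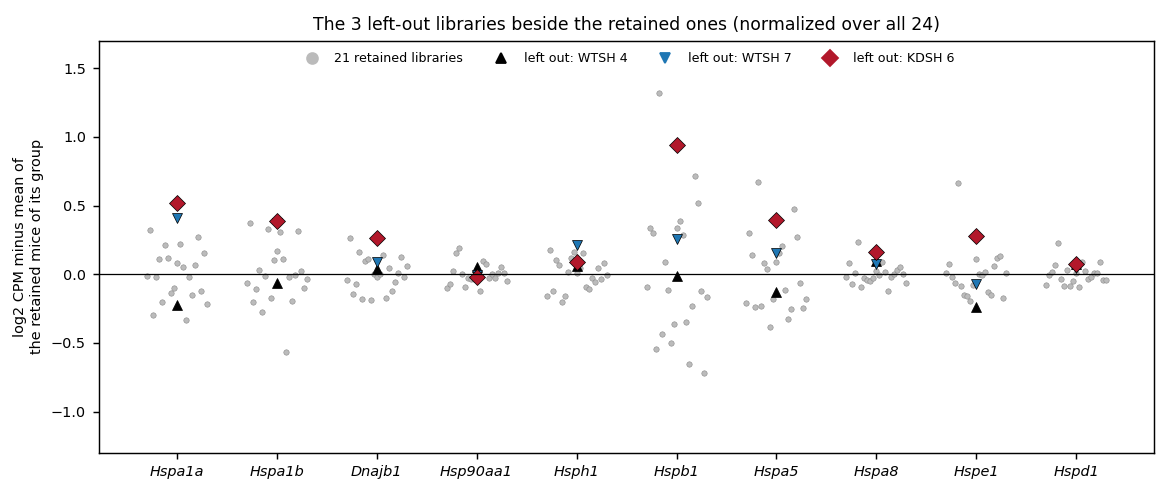
Log2 CPM of each chaperone minus the mean of the retained mice of its group, with all 24 libraries normalized together. Grey points are the 21 retained libraries and coloured symbols the 3 left-out ones. KDSH 6 (diamonds) lies above its group mean for most genes, by the most for Hspb1.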

How the data were processed

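Libraries were prepared with a poly(A) TruSeq kit from hippocampal RNA and sequenced as 150-base pairs. The authors trimmed reads with Skewer, aligned them with STAR (version 2.5 per the labels) to GRCm38 and counted uniquely placed reads per gene without strand using HTSeq (version 0.6.1p1). The deposited values are raw counts per gene symbol for each mouse. The 5 rows of each table that name no gene were left out: pairs outside genes made up 8.41 to 15.7% and ambiguous pairs 4.14 to 6.57% in the retained libraries. Samples were grouped by their titles. No 2 libraries held identical counts.

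Counts were analysed in edgeR 4.0.16 (R 4.3.3) with filterByExpr, trimmed mean of M-values scaling and 1 quasi-likelihood model over the 4 groups of 21 libraries. Genes were called at an adjusted p under 0.05 (Benjamini-Hochberg over 20187 genes) with a log2 fold change beyond 0.38 in either direction. The study used DESeq2, which was run as an alternative (version 1.42.0). Other alternatives were RLE scaling, other count filters, a robust fit, a covariate for the share of counts on 9 structural RNA gene models, other sets of libraries and the summed counts of Hspa1a and Hspa1b. Correlations used log2 CPM (prior count 2) with group means removed, 100000 two-sided permutations within groups, and adjustment over 45 pairs and over 110 relations. Both steps were tested on simulated data. GENCODE M21 gave exon lengths and positions, with 95.1% of symbols matching 1 gene. Counting error is small at this depth except for the lowest genes, and pairs without molecular identifiers are not independent molecules. The sequencing lane of each library was not used here.

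The text names the 10 members, any called gene of each chaperone list or otherwise the 2 with the smallest p, the 3 genes most like each member, and the other genes set against each member. For Dnajb1, 1 of those 3 genes is not reported here. The members, lists and tests were chosen with earlier results of these data known.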

Additional observations from a re-analysis of the deposited data

Results flagged for a closer look

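In 7 of the 40 combinations of a member and a group, the highest mouse was separated from the others by more than Dixon's 95% critical value, which chance exceeds in about 1 of 20 groups. In 6 of them the mouse was WTEE 10: Hsp90aa1 (908 CPM, next 796), Hspb1 (14.2 CPM, next 6.02), Hspa5 (401 CPM, next 265), Hspa8 (1746 CPM, next 1453), Hspe1 (88.7 CPM, next 52.8) and Hspd1 (174 CPM, next 153). These 6 values come from 1 library and are not independent of each other. This mouse also had the lowest neuron marker sum and the highest endothelial marker sum of the 21, and the part of these in its chaperone levels was not tested. In the seventh the mouse was KDEE 15 for Hspd1, at 160 CPM with the next at 150 CPM.

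In the libraries that the study left out, Hspa1a reached 8.66 CPM in WTSH 7 and 9.10 CPM in KDSH 6, and Hsph1 reached 315 CPM in WTSH 7. Each of these was higher than in any of the 21 retained libraries under the same normalization.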

How the results depend on the processing

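No member was called in any of the 7 comparisons under any alternative, and the smallest adjusted p of a member was 0.157 (Hsp90aa1, pooled housing, all 24 libraries). Most estimates were near 0, and 43 of 70 changed sign under at least 1 alternative. The number of member pairs past the threshold, 10, was 21 with all 24 libraries, 2 without the 2 mice farthest from the median, 5 in the 16 mice with Ttr of at most 87.5 CPM (chosen after seeing the data), and 4 to 12 when each mouse was left out. It was 4 without WTEE 10 and 6 without WTSH 5. The 8 relations with measures and other genes became 1, 1 and 1 to 10 under the last 3 of these settings. They numbered 1 without WTEE 10, KDSH 24 or KDEE 20, 2 without WTEE 11, 3 without WTEE 17 or KDEE 14, 4 without WTEE 13 and 5 without WTSH 23 or KDEE 22. The cause was not tested. Of these 18 pairs and relations, Hspb1 with Hspa5, Hsp90aa1 with Hspd1 and Hsph1 with Rbm3 passed under all 27 alternatives run on each, and in the 16 mice. Only the groups compared could not be used for the pooled comparisons and the difference of effects, which need all 4. Leaving out the libraries WTSH 2 and WTEE 10, which had over 1% of counts on structural RNA (chosen after seeing the data), called no member. No paired analysis was possible because no mouse number occurs in more than 1 group.

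With 4 to 6 mice a group, the 95% interval of Hspb1 reached up to 0.732 to either side of its log2 difference between 2 groups. Hspa1a, Hspa1b and Hspb1 also rest on fewer counts, and these genes, Hsp90aa1, Hspa8, Hspd1 and Hspe1 share sequence with near-identical copies.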
